A study of Mus musculus with 24 samples.

Results

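Trp53 and 9 of its direct transcriptional targets (Cdkn1a, Mdm2, Bax, Bbc3, Ccng1, Phlda3, Eda2r, Sesn2 and Zmat3) were followed across 24 transplanted mouse bladder tumors. These 10 genes were taken by name from the 53465 genes in the table, and all 10 passed the filter on low counts. The tumors belong to 8 BBN-induced Urothelium Roswell Park (BURP) lines. Each line began as the bladder tumor of 1 male or female C57BL/6NTac mouse that drank water with 0.1% BBN, a nitrosamine bladder carcinogen, from 8 weeks of age for at most 36 weeks. The tumors were then passaged under the skin of immune-competent C57BL/6NTac hosts of the same sex, and 3 tumors of each line were sequenced. Basal/squamous (Ba/Sq) tumors came from 6 lines, of which 3 were male (BURP-12BaSq, BURP-17BaSq, and the line BURP-18BaSq) and 3 female (BURP-21BaSq, the line BURP-24BaSq, and BURP-25BaSq). BURP-16SR is a male, stroma-rich line with sarcomatoid morphology, and BURP-19NE is a male, neuroendocrine-like line with poorly differentiated morphology. Every group therefore shares the carcinogen, the strain and the subcutaneous site, and a line stands for 1 donor. Age at transplantation and the Trp53 genotype of the lines are not given in the sources used here.

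p53 is a transcription factor that DNA damage and other stresses stabilize. It binds response elements in its target genes and switches on arrest of the cell cycle (Cdkn1a, which encodes the cyclin-dependent kinase inhibitor p21), cell death (Bax and Bbc3, which encodes PUMA) and its own removal (Mdm2, the ubiquitin ligase that marks p53 for degradation). p53 activity is set mainly by the stability and modification of the protein, so the Trp53 mRNA level is a measure of the transcript and not of that activity. In muscle-invasive bladder cancer, loss of p53 function by mutation or through MDM2 is common.

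A p53 response element consists of a pair of copies of the 10-base p53 decamer motif. The motif was searched in RefSeq promoter windows (GRCm38.p6; 250 bases before to 50 bases after an annotated start). It reads the same on both strands, so each match counts for both. Windows were found for 9 of the 10 genes, and 5 of these genes held a match. The stretches with a match are shown because they place the motif next to the genes measured here; capitals mark the motif, and each stretch lies upstream of the start and overlaps no exon in the annotation.
Cdkn1a, chr17:29090886-29090957, plus strand: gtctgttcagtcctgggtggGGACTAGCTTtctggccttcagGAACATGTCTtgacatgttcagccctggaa
Mdm2, chr10:117710915-117710964, minus strand: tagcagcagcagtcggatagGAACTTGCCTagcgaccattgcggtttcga
Ccng1, chr11:40755442-40755491, minus strand: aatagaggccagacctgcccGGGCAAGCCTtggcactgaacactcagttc
Bax, chr7:45467070-45467119, minus strand: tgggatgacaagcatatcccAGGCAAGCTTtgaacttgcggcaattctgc
Trp53, chr11:69580264-69580313, plus strand: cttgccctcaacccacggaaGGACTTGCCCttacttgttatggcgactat

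Cdkn1a alone among these windows held 2 matches, 12 bases apart, and the 10 bases directly after the second match fit the motif at 9 positions. Of all 32851 windows searched, 8.36% held a match and 0.0731% held a pair at most 13 bases apart. The windows of Phlda3, Sesn2, Eda2r and Bbc3, and a second Cdkn1a window 2790 bases downstream, held no match, which says only that these letters are absent there. The promoter of Zmat3 was not analysed here.

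Total counts ranged from 9295708 to 25370320 per tumor with a median of 17693147, and a count of 3 corresponded to 0.106 to 1.18 CPM (counts scaled to a common library size). The library of tumor C102-M30 of BURP-25BaSq had 61.9% of its counts on a ribosomal RNA gene, CT010467.1, so its low genes rest on few reads. Within BURP-25BaSq, the tumor labelled C102-M1 had Pearson r of 0.965 to 0.974 with the 3 BURP-21BaSq tumors and of 0.883 to 0.904 with the other tumors of its own line (across 21383 genes). It was kept as labelled, and calls that differ without it are given. The Ba/Sq label fit its markers: the summed level of 6 basal and squamous genes was 8629 to 21989 CPM in the 18 Ba/Sq tumors, against at most 1.27 CPM in BURP-16SR and BURP-19NE. CPM levels here are scaled by TMM factors, ± is the SD over 3 tumors, and a gene was called where its edgeR quasi-likelihood test, adjusted over all genes tested by Benjamini-Hochberg, gave a value under 0.05.

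The 10 genes were found at very different depths. Per kilobase of exon, the median level over 24 tumors was highest for Phlda3, at 62.1 CPM per kb, followed by Trp53 at 20.1 and Cdkn1a at 15.7 CPM per kb. Mdm2 (11.6), Ccng1 (11.5), Bax (9.31), Sesn2 (7.66) and Zmat3 (5.92 CPM per kb) lay between, and the lowest levels were those of Bbc3 (1.76) and Eda2r (1.18 CPM per kb). Bbc3 reached as few as 1 read, in tumor C102-M30. Of the genes, 2 share exon sequence with another annotated gene: 12.2% of Bax with Gm45808 on its strand and 7.68% of Cdkn1a with AC167363.2 on the other strand. Trp53-ps, the processed pseudogene of Trp53, was listed at 0 in all 24 tumors.

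Levels differed among the 8 lines by more than the spread between tumors of a line for 9 of the 10 genes, and Ccng1 was the exception (adjusted p = 0.0607). Such differences were the rule in this series, since 76.7% of the 21383 genes tested were called. Within the 10 genes the differences were clearest for Zmat3 (adjusted p = 1e-07), Phlda3 (1.69e-06), Trp53 (1.74e-06) and Cdkn1a (3.57e-06), and least clear for Eda2r (0.011) and Sesn2 (0.0237). The call for Sesn2 was lost without C81-M1 (adjusted p = 0.0587) or P2 (0.0556) of BURP-24BaSq, while Ccng1 was called by DESeq2 (0.0331) and by edgeR without C102-M1 (0.0229), C41-M3 of BURP-12BaSq (0.0307), C149-M3 of BURP-18BaSq (0.0423), C81-M30 of BURP-24BaSq (0.0499), P5 of BURP-21BaSq (0.0494) or P5 of BURP-16SR (0.05 after rounding). In bulk tumor RNA, fewer cells of a type and less RNA per cell cannot be told apart. Replicate tumors of a line share a donor, so these tests set the lines against the spread between transplants.

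**Figure D1:**
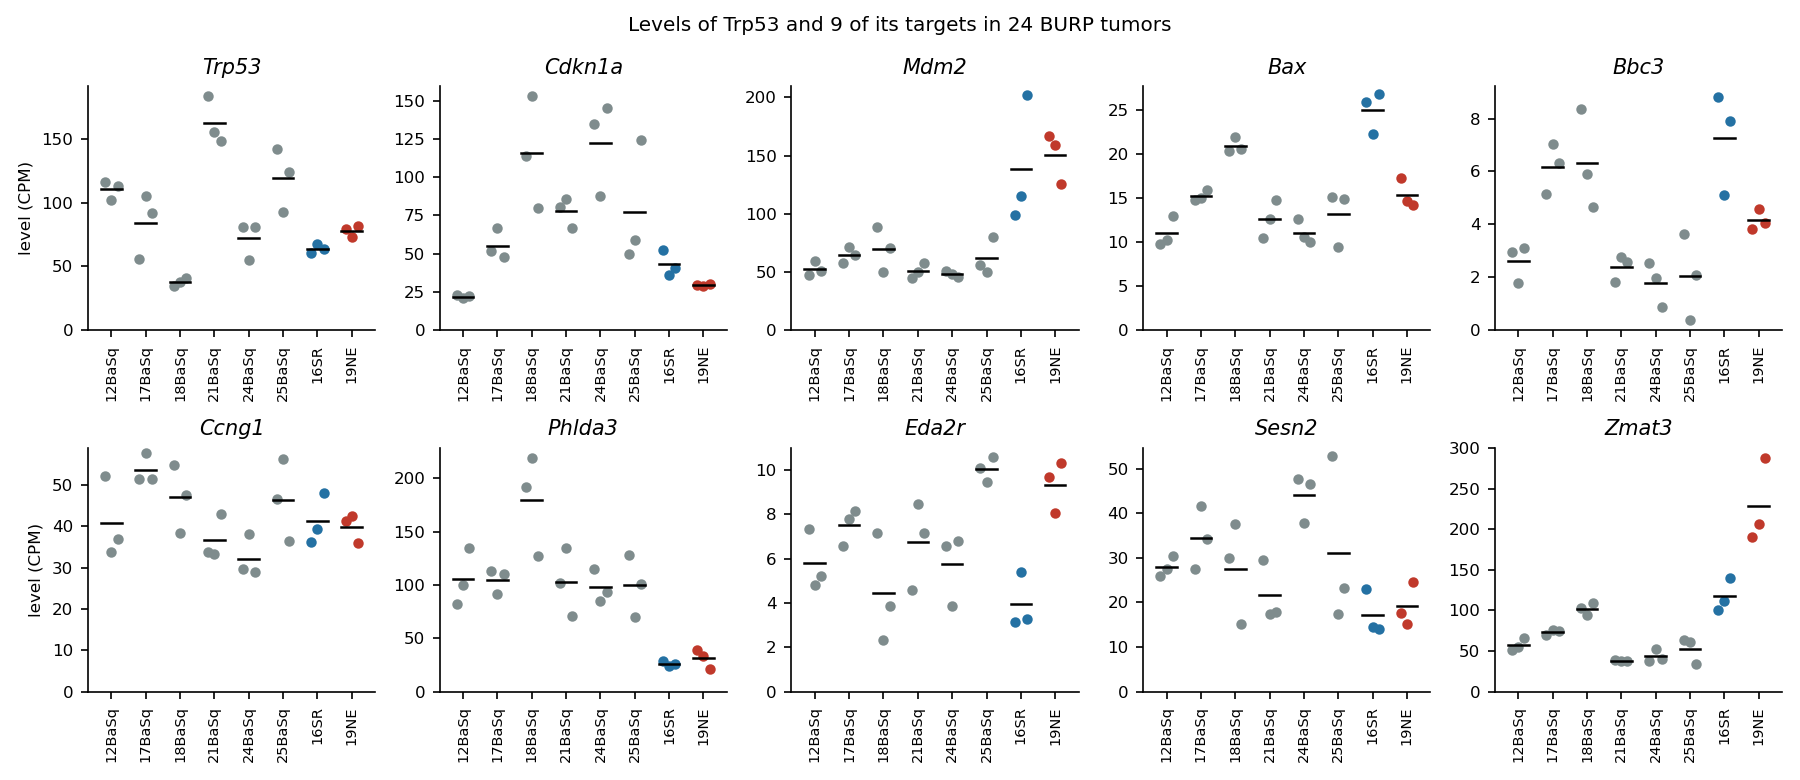
Each panel plots the level of 1 gene (y axis, CPM, from 0) in the 3 tumors of each of the 8 BURP lines (points; gray Ba/Sq, blue BURP-16SR, red BURP-19NE), with a bar at the line mean. Mdm2 lies between 98.9 and 202 CPM in BURP-16SR and BURP-19NE and at most at 88.4 CPM in the Ba/Sq tumors, while Phlda3 is at most 39.2 CPM in the former and at least 69.7 CPM in the latter.

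Trp53 itself (ENSMUSG00000059552.13; GRCm38 chromosome 11, 69580359 to 69591873, plus strand) was highest in BURP-21BaSq, at 184.4, 154.7 and 147.7 CPM. It was lowest in BURP-18BaSq, at 34.9, 37.5 and 40.9 CPM, and the means of these lines differed 4.3-fold. The 3 tumors of BURP-18BaSq lay below all 21 other tumors, and those of BURP-21BaSq lay above all others. Between them the lines formed a graded series of overlapping ranges: 120 ± 25 CPM in BURP-25BaSq, 110 ± 7.63 in BURP-12BaSq, 84 ± 25.5 in BURP-17BaSq, 77.9 ± 4.5 in BURP-19NE, 72.3 ± 15.1 in BURP-24BaSq and 63.7 ± 3.69 CPM in BURP-16SR. Each of these neighbours overlapped the next. Against the other 5 Ba/Sq lines, Trp53 in BURP-18BaSq fell by 1.54 ± 0.32 on the log2 scale (SE; adjusted p = 0.00306). Trp53 in BURP-21BaSq was 0.92 ± 0.33 higher on the log2 scale than in the other Ba/Sq lines and did not pass the test (adjusted p = 0.333), although no tumor overlapped (1.29% of genes did not overlap there).

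Mdm2 (ENSMUSG00000020184.15, chromosome 10, 117688875 to 117710758, minus strand), which closes the feedback loop on p53, split BURP-19NE and BURP-16SR from the Ba/Sq lines. BURP-19NE had 167, 159 and 126 CPM and BURP-16SR had 98.9, 115 and 202 CPM. The 18 Ba/Sq tumors had 44.8 to 88.4 CPM, with a median of 53.7 CPM. All 6 tumors of the former lines lay above all Ba/Sq tumors, and the 6 Ba/Sq lines, from 48.2 ± 2.2 CPM in BURP-24BaSq to 69.6 ± 19.4 in BURP-18BaSq, overlapped each with its next neighbour.

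Ccng1 (ENSMUSG00000020326.7; chromosome 11, 40748552 to 40755311, minus strand) encodes cyclin G1, which recruits a phosphatase to MDM2. It varied least, 1.66-fold between the highest line mean (53.6 ± 3.53 CPM in BURP-17BaSq) and the lowest (32.2 ± 5.12 CPM in BURP-24BaSq), and each line overlapped its next lower neighbour.

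Cdkn1a (ENSMUSG00000023067.13; chromosome 17, 29090976 to 29100727, plus strand) had its lowest values in BURP-12BaSq, at 22.6, 20.7 and 22.4 CPM, and in BURP-19NE, at 29.3, 28.6 and 30 CPM. Those 6 tumors lay below all 18 others, and the ranges of the 2 lines did not overlap. BURP-24BaSq (135, 87.9 and 145 CPM) and BURP-18BaSq (114, 153 and 79.5 CPM) had the highest means, 5.6 times that of BURP-12BaSq at the top, and overlapped. In BURP-25BaSq the tumors had 49.5 and 58.7 CPM, and the library labelled C102-M1 had 124 CPM. The remaining means were 77.5 ± 9.73 CPM in BURP-21BaSq, 55.2 ± 10 in BURP-17BaSq and 43 ± 8.63 CPM in BURP-16SR.

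The death genes Bax and Bbc3 shared an order at the top. Bax (ENSMUSG00000003873.11; chromosome 7, 45461697 to 45466898, minus strand), which permeabilizes the mitochondrial outer membrane, had 25.8, 22.2 and 26.8 CPM in BURP-16SR and 20.3, 21.9 and 20.5 CPM in BURP-18BaSq. These lines did not overlap each other or any other tumor, since the other 18 tumors reached at most 17.2 CPM. Bbc3 (ENSMUSG00000002083.13; chromosome 7, 16308393 to 16318205, plus strand), whose product frees BAX from its inhibitors, had 8.81, 5.1 and 7.89 CPM in BURP-16SR, 8.37, 5.92 and 4.65 CPM in BURP-18BaSq and 5.13, 7.05 and 6.31 CPM in BURP-17BaSq. BURP-19NE followed at 3.83 to 4.58 CPM, and the 12 tumors of the other 4 lines had at most 3.65 CPM. The 3 lines highest in Bbc3 overlapped each other and lay above the rest.

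Eda2r (ENSMUSG00000034457.10; X chromosome, 97333840 to 97377216, minus strand), a receptor of the tumor necrosis factor family, was highest in BURP-25BaSq (10.1, 9.45 and 10.6 CPM) and BURP-19NE (9.67, 8.06 and 10.3 CPM) and lowest in BURP-16SR (3.13, 5.41 and 3.28 CPM). It spanned 2.55-fold between line means, and every line overlapped its next lower neighbour.

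Phlda3 (ENSMUSG00000041801.5; chromosome 1, 135766119 to 135769136, plus strand), which restrains AKT at the membrane, showed the opposite split to Mdm2. It had 28.7, 23.7 and 25.6 CPM in BURP-16SR and 39.2, 33.3 and 21.2 CPM in BURP-19NE. The 18 Ba/Sq tumors had 69.7 to 219 CPM, with a median of 106 CPM, and none reached down to the other lines. BURP-18BaSq had the highest mean, 180 ± 47.2 CPM, 6.9 times the lowest.

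Sesn2 (ENSMUSG00000028893.8; chromosome 4, 132492032 to 132510501, minus strand), a stress sensor that lowers mTORC1 signaling, was highest in BURP-24BaSq (47.7, 37.7 and 46.6 CPM) and lowest in BURP-16SR (23.1, 14.4 and 14 CPM). Its tumors varied widely within lines: BURP-25BaSq held 52.8, 17.3 and 23.3 CPM, and each line overlapped its next neighbour.

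Zmat3 (ENSMUSG00000027663.12; chromosome 3, 32334792 to 32366014, minus strand), an RNA-binding regulator of splicing, was highest in BURP-19NE, at 191, 207 and 288 CPM, above every other tumor. BURP-16SR (101, 112 and 140 CPM) and BURP-18BaSq (103, 94.6 and 109 CPM) overlapped and came next. BURP-21BaSq was lowest, at 38.9, 38 and 37.2 CPM, and the means of the highest and lowest lines differed 6.01-fold. Zmat3 in C102-M1 (33.5 CPM) was well below the other BURP-25BaSq tumors, at 63.8 and 61 CPM.

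**Figure D2:**
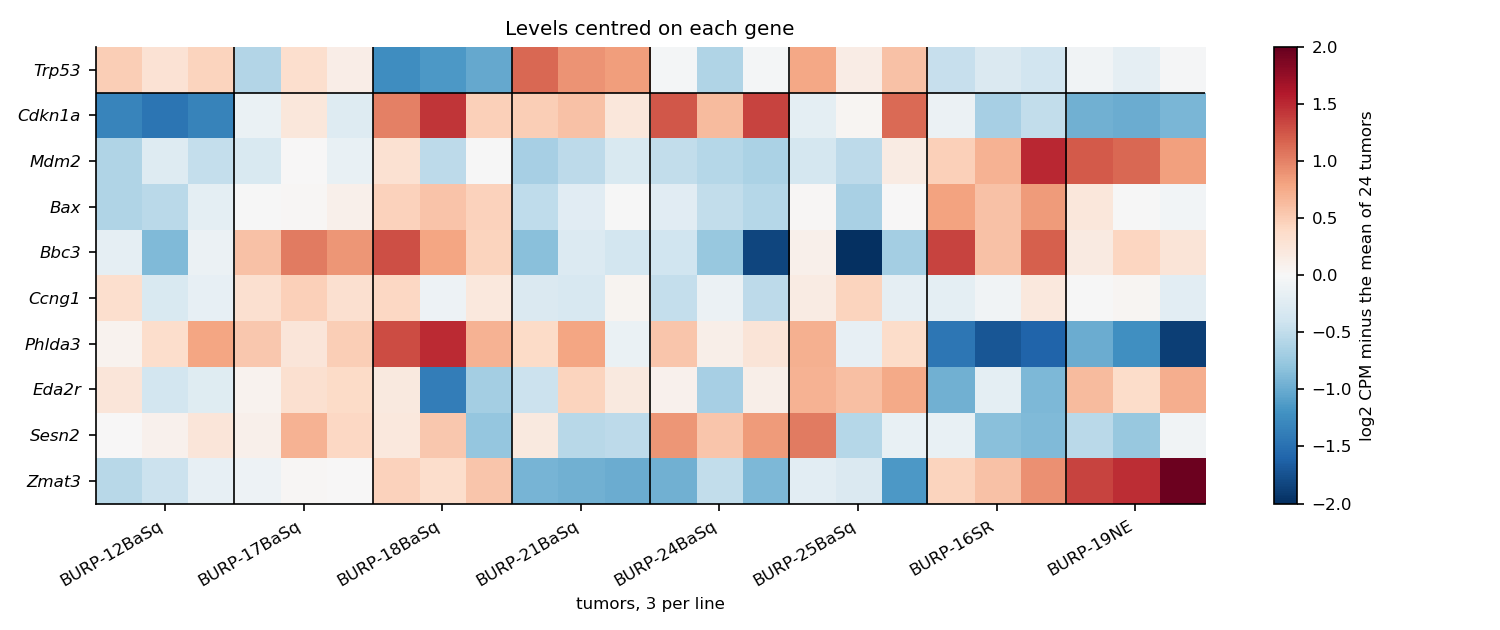
Rows are the 10 genes and columns the 24 tumors, grouped by line; color is the log2 CPM minus the mean of that gene over 24 tumors, and the scale ends at 2 in either direction. Trp53 is blue in all 3 tumors of BURP-18BaSq while most cells of Cdkn1a, Bax, Bbc3, Phlda3 and Zmat3 are red there; in BURP-19NE Mdm2 and Zmat3 are red while Cdkn1a and Phlda3 are blue.

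The neuroendocrine-like line was compared with the Ba/Sq lines. That subtype is 1 male line from 1 donor here, so subtype and donor cannot be told apart, and 3 of the 6 Ba/Sq lines are female. This test, and the later ones of 1 line against pooled Ba/Sq tumors, counted each tumor as a replicate. Tumors of a line share a donor, so those p-values can be too small for a difference between lines. In BURP-19NE, 4 of the 10 genes were called, against 33.5% of all 20995 genes tested, and they went in both directions. Mdm2 was 2.62-fold higher (log2 fold change 1.39 ± 0.16, SE; adjusted p = 1.55e-06) and Zmat3 3.78-fold higher (1.92 ± 0.27; 1.35e-05). Phlda3 was 3.64-fold lower (-1.86 ± 0.30; 7.53e-05) and Cdkn1a 2.65-fold lower (-1.41 ± 0.53; 0.045). The tumors did not overlap for Mdm2, Zmat3 and Phlda3, as for 17.8% of genes, and they did for Cdkn1a, whose low BURP-12BaSq tumors lay under those of BURP-19NE.

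The call for Cdkn1a was marginal: it was lost when any BURP-19NE tumor was left out (adjusted p 0.113 to 0.131), without C149-M3 of BURP-18BaSq (0.0507), without C81-M1 or C81-M30 of BURP-24BaSq (0.0542 and 0.0532) and with no filter on low counts (0.0615). The other log2 fold changes were -0.31 ± 0.40 for Trp53, -0.68 ± 0.31 for Sesn2, 0.50 ± 0.31 for Eda2r, 0.24 ± 0.51 for Bbc3, 0.15 ± 0.23 for Bax and -0.09 ± 0.21 for Ccng1, and none of these passed the test.

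BURP-16SR against the Ba/Sq lines gave 4 called genes, against 25.1% of 21028 genes tested. Mdm2 (2.48-fold; log2 fold change 1.31 ± 0.18; adjusted p = 1.96e-05), Bax (1.87-fold; 0.90 ± 0.22; 0.00441) and Zmat3 (2.01-fold; 1.0 ± 0.29; 0.0133) were higher. Phlda3 was 4.22-fold lower (-2.08 ± 0.30; 3.01e-05). Mdm2, Bax and Phlda3 did not overlap, as for 11.2% of genes. Without tumor P5, the BURP-16SR tumor with 202 CPM of Mdm2, the log2 fold change of Mdm2 was 0.87 (adjusted p = 0.00618), and the calls for Bax (0.0509) and Zmat3 (0.131) were lost, which left 2 called genes.

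The genes that did not pass in BURP-16SR were Bbc3 (log2 fold change 1.10 ± 0.49; adjusted p = 0.103), Sesn2 (-0.79 ± 0.33; 0.0887), Eda2r (-0.70 ± 0.36), Cdkn1a (-0.80 ± 0.51) and Trp53 (-0.55 ± 0.40). Ccng1 was at 0.00 ± 0.21, and its sign changed with the scaling. With 1 coefficient per line in a fit of all 24 tumors, so that the spread between Ba/Sq lines no longer counted, 9 of the 10 genes were called, including Trp53 (adjusted p = 0.0152), while over all genes the count also rose, from 5276 to 9092. Both comparisons share the same 18 Ba/Sq tumors. BURP-16SR too is 1 male line from 1 donor, so its subtype and donor cannot be told apart.

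**Figure D3:**
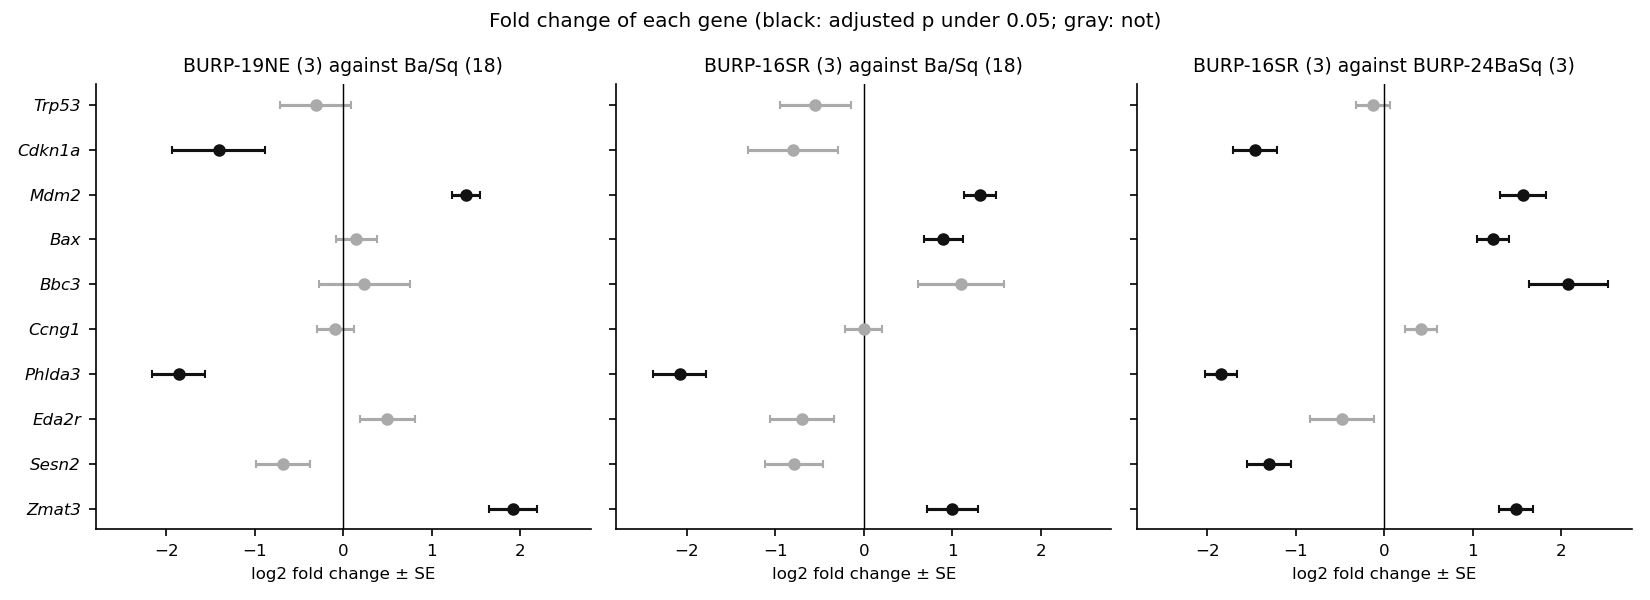
Log2 fold change (x axis) with its SE for each of the 10 genes in BURP-19NE or BURP-16SR against the 18 Ba/Sq tumors and in BURP-16SR against BURP-24BaSq; black marks an adjusted p under 0.05 and gray the rest. Mdm2 (1.39 and 1.31), Zmat3 (1.92 and 1.0) and Phlda3 (-1.86 and -2.08) have like signs in the left and middle panels, while Trp53 and Ccng1 are gray in all 3.

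Other markers moved with these comparisons. The summed level of 10 fibroblast genes was 3938 to 24244 CPM in BURP-16SR and 2884 to 7097 CPM in BURP-19NE, against 310 to 12448 CPM in the Ba/Sq tumors (median 1460), with no gene at 0 throughout a group. The sum of 8 endothelial genes was 198 to 322 CPM in BURP-16SR and 51.7 to 73.7 in BURP-19NE, against 27.6 to 339 CPM. The sum of 10 leukocyte genes had medians of 433, 207 and 214 CPM in BURP-16SR, BURP-19NE and the Ba/Sq tumors, and 6 skeletal muscle genes reached 140 CPM in 1 BURP-16SR tumor and 579 CPM in 1 BURP-19NE tumor, against at most 37 CPM. Of 6 epithelial genes the sum was 499 to 1138 CPM in BURP-16SR and 175 to 261 CPM in BURP-19NE, against 381 to 3360 CPM, with 1 of the 6 at 0 in all BURP-19NE tumors. Of the basal and squamous genes, 2 of 6 were at 0 in all BURP-16SR tumors. The part of these cells in the levels of the p53 genes was not tested.

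Trp63, which encodes p63, the p53 relative that maintains basal epithelium and binds much the same DNA element, was high as RNA in the Ba/Sq lines alone. Its RNA level was 178 to 771 CPM in the Ba/Sq tumors, 0.158 to 0.547 CPM in BURP-19NE and 0 to 0.232 CPM in BURP-16SR. The paper's antibody staining for the TP63 protein differed from this split. It describes high TP63 in BURP-19NE, staining of some cells in BURP-16SR, and no cellular TP63 in BURP-17BaSq and BURP-24BaSq. Trp73, the third family member, was at 7.09 to 76 CPM in the Ba/Sq tumors and at most at 0.0847 CPM in the other lines. Trp53 was thus the 1 member of the family of 3 that was not called in either comparison.

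The wider set of p53 targets, listed by role, also went both ways. Of 62 further listed targets 61 could be tested, and 55 differed among the 8 lines, where 76.7% of all genes did. In BURP-19NE 12 were higher and 15 lower, against 15.5% and 17.9% of all genes, with a median log2 fold change of -0.29 against -0.14 over all genes. Among arrest genes (5 of 12 called), Gadd45a rose, from 3.3 to 14.9 CPM in Ba/Sq tumors to 70.9 to 125 CPM (log2 fold change 3.81 ± 0.28). Cdkn1b, which is on the list but whose standing as a direct p53 target was not tested here, rose too (1.09 ± 0.25). Sfn, the 14-3-3 protein that holds CDK1 in the cytoplasm, fell from a median of 599 CPM to 9.22 CPM (-6.27 ± 0.57), and Btg2, an antiproliferative cofactor, from 54.5 to 11.1 CPM (-2.92 ± 0.56).

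Among death genes (7 of 15 called in BURP-19NE) the death receptor gene Tnfrsf10b rose (log2 fold change 1.21 ± 0.23), while Perp (-2.67 ± 0.27), a desmosomal p53 and p63 target, and Dram1 (-4.25 ± 0.93), an autophagy regulator, fell. Of the 24 repair and metabolism genes 8 were higher and 4 lower, with Ephx1 (-4.44 ± 1.02), Gls2 (-3.96 ± 0.48) and the drug efflux pump gene Abcb1a (2.99 ± 0.51) moving most. Of 10 feedback genes 3 were called, all lower, among them Ppm1d (-1.28 ± 0.28), the phosphatase WIP1 that switches off the damage response.

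In BURP-16SR 10 of the 61 were higher and 12 lower, against 13.8% and 11.3% of all genes, with a median log2 fold change of -0.19 against -0.03 over all genes. Sfn (-7.02 ± 0.69), Perp (-5.05 ± 0.48) and Psrc1 (-3.38 ± 0.69) were lower. Abcb1a (5.38 ± 0.49), Tnfrsf9 (2.78 ± 0.41) and Pmaip1, which encodes NOXA (2.0 ± 0.46), were higher. Pmaip1 had 84.9 to 280 CPM in BURP-16SR and 17.2 to 133 CPM in the Ba/Sq tumors.

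The relatives of the targets differed between these lines. Of 17 tested genes of the Bcl2 family, which decides mitochondrial cell death, 5 were called in BURP-16SR, all higher (13.8% of all genes were): Pmaip1, the survival genes Bcl2l1 (1.87) and Bcl2l2, and the death genes Bcl2l11 and Bax. In BURP-19NE 4 were called, all lower (17.9% of all genes were), all pro-death genes: Bik (-2.84 ± 0.96), Bok, Bak1 and Bmf. Of 7 cyclin-dependent kinase inhibitor genes, 6 were called in BURP-19NE (33.5% of all genes), with Cdkn1c (-3.31 ± 0.88), Cdkn2b (-2.09 ± 0.42), Cdkn1a and Cdkn2d lower and Cdkn2c (1.63 ± 0.25) and Cdkn1b higher, and 0 in BURP-16SR. Of 24 cell-cycle genes that p53 lowers through p21, 4 were lower in BURP-19NE (Mcm5, Aurkb, Pcna and Birc5), a share no higher than the 17.9% of all genes. In BURP-16SR 8 were lower (11.3% of all genes), among them Mcm5, Plk1 and Ccnb2, and E2f1 was higher (1.66 ± 0.21).

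Upstream of p53, 5 of 21 regulator genes were called in BURP-19NE and 2 of 21 in BURP-16SR, both smaller shares than the 33.5% and 25.1% of all genes. In BURP-19NE the kinase gene Hipk2 was higher (1.58 ± 0.37), and Prkdc (-1.42 ± 0.37), Ppm1d, Rpl11 and Usp7 were lower. In BURP-16SR Hipk2 was higher (1.73 ± 0.38) and the checkpoint kinase gene Chek2 lower (-1.19 ± 0.43). Mdm4, the partner of Mdm2, lay between 59.9 and 147 CPM in all 24 tumors. Cdkn2a, which encodes p16 and the MDM2 inhibitor p19Arf from 1 locus that a gene count cannot separate, had 86.3 to 122 CPM in BURP-19NE, 25 to 59.2 in BURP-16SR and 32.4 to 112 CPM in the Ba/Sq tumors.

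The 2 lines whose cisplatin response the study followed, BURP-16SR (which responded) and BURP-24BaSq (which did not), differed in 7 of the 10 genes, against 38% of 18283 genes tested. Bbc3 was 4.23-fold higher in BURP-16SR (5.1 to 8.81 CPM against 0.868 to 2.55 CPM; log2 fold change 2.08 ± 0.45; adjusted p = 0.0118). Mdm2 (2.97-fold; 1.57 ± 0.26; 0.00414), Zmat3 (2.8-fold; 1.49 ± 0.19; 0.00149) and Bax (2.35-fold; 1.23 ± 0.18; 0.00235) were higher too. Phlda3 was 3.61-fold lower (-1.85 ± 0.18; 0.000464), Cdkn1a 2.74-fold lower (35.9 to 52.6 CPM against 87.9 to 145 CPM; -1.46 ± 0.25; 0.00496) and Sesn2 2.46-fold lower (-1.30 ± 0.25; 0.00788).

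All 7 called genes had no overlap between the 3 tumors of each line, which held for 53.5% of genes. Trp53 differed by -0.13 ± 0.19, Ccng1 by 0.41 ± 0.18 and Eda2r by -0.48 ± 0.36 on the log2 scale, and these did not pass. All 7 calls stood when any 1 of the 6 tumors was left out. The death genes among the 7 were thus higher, and the arrest gene lower, in BURP-16SR, but the pair also differs in sex, subtype and donor, which cannot be told apart from the drug response, and the sources do not say whether the sequenced tumors were treated. The fibroblast sum was 1508 to 2086 CPM in BURP-24BaSq, with 3 of 10 genes called higher in BURP-16SR, and all 8 endothelial genes were higher there; the part of these cells was not tested. Of the 61 further targets 12 were higher and 13 lower in BURP-16SR (20.4% and 17.6% of all genes), with Abcb1a (5.93 ± 0.55), Cpt1c (5.11 ± 0.29) and the DNA repair gene Mgmt (2.58 ± 0.31) among the higher.

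Among the Ba/Sq lines, BURP-18BaSq stood out, with 4 of 10 genes called against 15.9% of 20523 genes tested. Beside the lower Trp53, Bax (log2 fold change 0.73 ± 0.17; adjusted p = 0.0064), Phlda3 (0.81 ± 0.18; 0.00522) and Zmat3 (0.94 ± 0.23; 0.00891) were higher than in the other 5 lines. Trp53, Bax and Zmat3 did not overlap, as for 7.83% of genes. Bbc3 (1.06 ± 0.47), Cdkn1a (0.70 ± 0.46), Mdm2 (0.32 ± 0.17) and Ccng1 (0.16 ± 0.22) did not pass. Neither did Sesn2 (-0.21 ± 0.32) and Eda2r (-0.70 ± 0.34), which went the other way. The line thus combined the lowest Trp53 transcript with 3 raised targets. The call for Trp53 stood without each tumor in turn, whereas those for Bax, Phlda3 and Zmat3 were lost without C148-M3 (adjusted p 0.0507, 0.0624 and 0.0662) and those for Bax and Phlda3 also without C149-M3 (0.05, just over the threshold, and 0.0766). The fibroblast sum in this line was 960 to 7383 CPM, within the range of the other Ba/Sq tumors. Of the 61 further targets 7 were higher and 6 lower there (8.62% and 7.27% of all genes), with Cpt1c (4.21) the highest.

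BURP-12BaSq had the opposite single feature: Cdkn1a fell by 2.05 ± 0.37 on the log2 scale (adjusted p = 0.00359), the sole called gene of the 10, a share close to the 6.94% of all genes. Its 3 tumors lay below all other Ba/Sq tumors, as for 7% of genes, and the call stood without each tumor in turn. The other log2 fold changes in this line lay between -0.53 ± 0.58 (Bbc3) and 0.20 ± 0.41 (Trp53). Of the other cyclin-dependent kinase inhibitor genes, Cdkn2a was lower there too (-1.02; adjusted p = 0.0216), and of the 61 further targets 4 were higher and 3 lower (3.88% and 3.06% of all genes). Of the 6 epithelial genes 3 were lower in this line, with a sum of 381 to 532 CPM, and 1 fibroblast gene (sum 310 to 623 CPM) and 1 basal gene were lower. The part of these cells was not tested.

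None of the 10 genes was called in BURP-17BaSq (1.64% of genes), BURP-21BaSq (0.0195%), BURP-24BaSq (2.6%) or in BURP-25BaSq (0.287%) by edgeR or DESeq2. At an unadjusted edgeR p under 0.05 there were 1 (Bbc3), 2 (Trp53 and Zmat3), 2 (Ccng1 and Sesn2) and 1 (Eda2r) of the 10 in these lines, against 15.2%, 10.8%, 18.1% and 9.35% of all genes. Eda2r was higher in each of the 3 tumors of BURP-25BaSq than in all other Ba/Sq tumors (log2 fold change 0.79 ± 0.28), as for 0.643% of genes. The largest log2 differences there were Bbc3 in BURP-24BaSq (-1.14 ± 0.57) and in BURP-17BaSq (1.01 ± 0.48). Without C102-M1 these counts of the 10 genes remained 0. With 1 coefficient per line, Bbc3 was called in BURP-17BaSq, Trp53 and Zmat3 in BURP-21BaSq, Cdkn1a in BURP-24BaSq and Trp53 in BURP-25BaSq, while the calls over all genes in these lines rose to 2760, 1247, 3627 and 1111.

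Male and female Ba/Sq lines were compared on counts summed per line, 3 lines against 3. None of the 10 genes, and 0% of 21658 genes, was called by edgeR, while 1388 genes, with Bbc3 and Zmat3 among them, had an unadjusted p under 0.05, and DESeq2 called 242 genes and none of the 10. The paper, with DESeq2, reports genes higher in either sex in these lines, with Y-linked genes among the top ones in males. Since edgeR called no gene here, Y-linked genes went uncalled too, and its lack of calls says little about the 10 genes. Bbc3 was 1.01 ± 0.43 (adjusted p = 0.773) and Zmat3 0.81 ± 0.27 (0.734) higher in males on the log2 scale, and Trp53 0.67 ± 0.44 lower (0.811). For this overlap the summed counts were divided by each line's total count, without TMM factors. The 3 male lines then lay above the 3 female lines for Bbc3, Zmat3 and Mdm2 (0.13 ± 0.21). By that measure 9.54% of genes separated in either direction. The BURP-25BaSq total includes the C102-M30 library, with 61.9% of its counts on a ribosomal RNA gene, which lowers the shares of its other genes. By the mean TMM-scaled CPM of their tumors, the male lines were above the female lines for Bbc3 and Zmat3 but not for Mdm2. For Mdm2, female BURP-25BaSq (61.9 CPM) was above male BURP-12BaSq (52.6 CPM). For Bbc3 the margin was narrow, 2.61 CPM in male BURP-12BaSq against 2.4 CPM in female BURP-21BaSq. Counting each tumor as a replicate, which ignores that 3 tumors share a donor, Bbc3 (adjusted p = 0.0338) and Zmat3 (0.0204) passed, among 979 genes in all.

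Whether the 9 targets moved together was described with correlations of log2 CPM, which carry no p because tumors of a line share a donor. Over the 8 line means the 36 target pairs had a median Pearson r of -0.02, against 0.01 over all gene pairs, and 47.2% were positive, against 50.5%. Of the target pairs 25% had r of at least 0.5 (14.2% of all pairs) and 16.7%, or 6 pairs, had r of at most -0.5 (13.5%); without single tumors the latter count ran from 4 (without P4 of BURP-18BaSq) to 8 (without C165-M30 of BURP-17BaSq). These shares were not tested against each other. Thus, the targets did not rise and fall as 1 block across the lines. Line means share the scaling of their libraries and rest on 3 tumors each.

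Part of this came from the split of BURP-16SR and BURP-19NE from the Ba/Sq lines. Over the 6 Ba/Sq line means alone the median r was 0.21 (all pairs 0.01), with 61.1% of pairs positive, 38.9% at least 0.5 (17.9%) and 2.78% at most -0.5 (16.7%). Mdm2 and Phlda3 had r = -0.86 over 8 lines (rho = -0.29) and 0.65 over the 6 Ba/Sq lines, since BURP-16SR and BURP-19NE were high in one and low in the other. Zmat3 and Phlda3 turned likewise, from -0.63 to 0.84. Within lines, over the 24 deviations from the line means, the median r was 0.08 (all pairs 0.02), with 5.56% of pairs at least 0.5 (6.63%).

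A group of 4 targets did run in parallel over the 8 lines, where their weakest pair was Mdm2 and Bbc3 (r = 0.60). Mdm2 and Zmat3 had r = 0.92 (rho = 0.95; 0.87 over the Ba/Sq lines), Bax and Bbc3 0.85 (rho = 0.76; 0.80), Bbc3 and Zmat3 0.68 (0.84) and Mdm2 and Bax 0.68 (0.86). Leaving out the 2 lines farthest from the median of the first gene gave 0.87 for Mdm2 and Zmat3 (these were BURP-16SR and BURP-19NE) and 0.75 for Bax and Bbc3. Of these, Bax and Bbc3 also ran together between tumors of the same line (r = 0.75), whereas Mdm2 and Zmat3 did not (r = -0.12). Over the 6 Ba/Sq lines alone, Ccng1 and Phlda3 ran with these 4 as well. Ccng1 had r = 0.91 with Mdm2, 0.73 with Zmat3, 0.68 with Bbc3 and 0.64 with Bax there. Phlda3 had 0.88 with Bax, 0.84 with Zmat3, 0.69 with Bbc3 and 0.65 with Mdm2, and 0.35 with Ccng1. The 4 genes, and the 2 that joined them in the Ba/Sq lines, were picked after their values were seen.

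Cdkn1a stood apart from that group. Its r with Mdm2 was -0.45 over 8 lines and 0.11 over the Ba/Sq lines, with Zmat3 -0.43 and with Bax 0.04, and its closest partner was Phlda3 (0.53; 0.31 over the Ba/Sq lines). Within lines Cdkn1a and Zmat3 had r = -0.68 and Cdkn1a and Ccng1 -0.53. In BURP-25BaSq the library labelled C102-M1 was both the highest in Cdkn1a (124 CPM, against 49.5 and 58.7) and the lowest in Zmat3 (33.5 CPM, against 63.8 and 61). The r of -0.68 therefore leaned on that library, and r of this pair without it was not computed. Sesn2 ran with Phlda3 (0.65; -0.26 over the Ba/Sq lines) and Eda2r with no other target above 0.15.

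**Figure D4:**
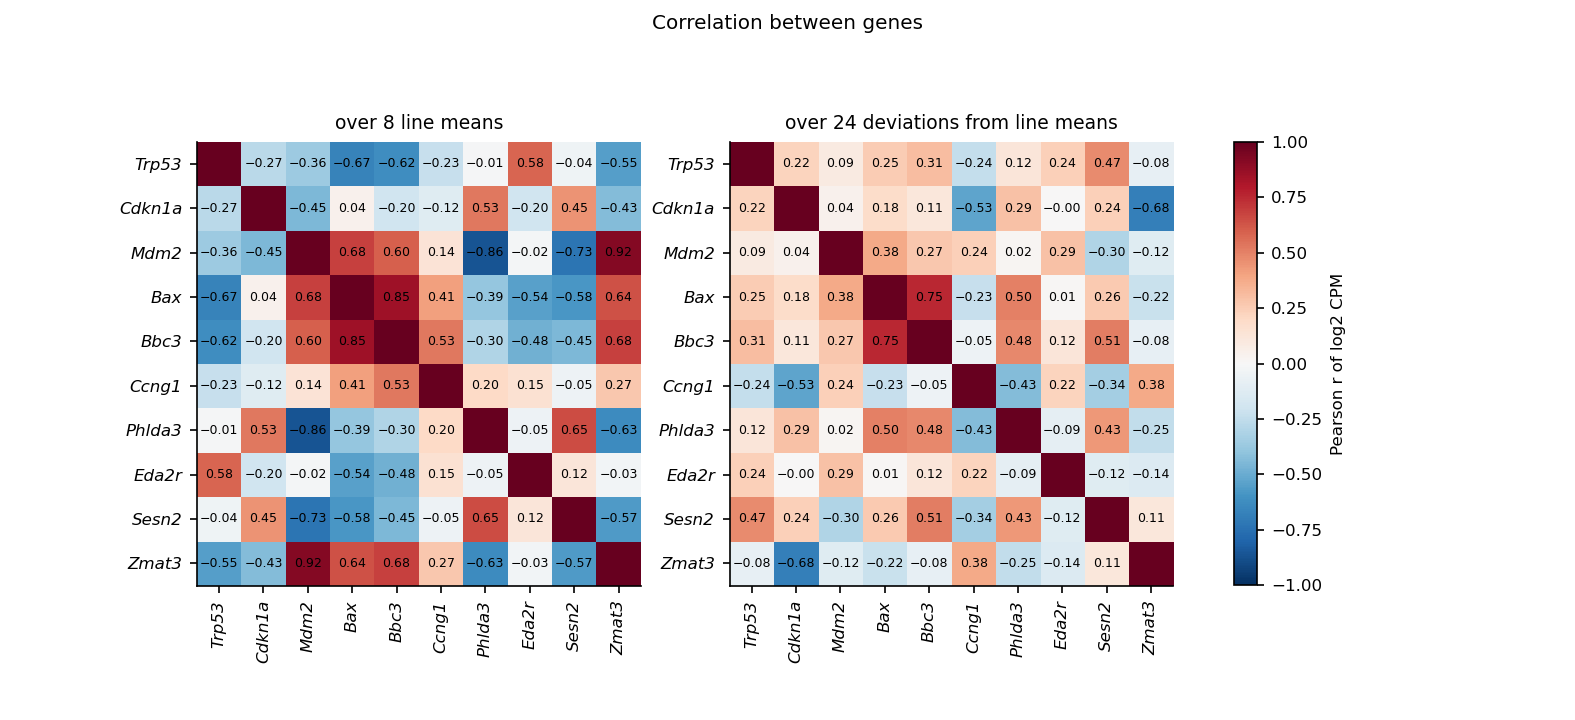
Pearson r of log2 CPM between each pair of the 10 genes, over the 8 line means (left) and over the 24 deviations of tumors from their line mean (right); red is positive and blue negative. Mdm2 and Zmat3 reach 0.92 on the left and -0.12 on the right, while Bax and Bbc3 are at 0.85 and 0.75.

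A target score, the mean over the 9 targets of log2 CPM centred on the 24 tumors, ordered the lines. It was highest in BURP-18BaSq (0.38 ± 0.24) and BURP-17BaSq (0.23 ± 0.11), then 0.08 ± 0.04 in BURP-19NE, -0.00 ± 0.11 in BURP-16SR, -0.06 ± 0.34 in BURP-25BaSq, -0.13 ± 0.13 in BURP-24BaSq, -0.20 ± 0.09 in BURP-21BaSq and -0.30 ± 0.12 in BURP-12BaSq. The order depended on Cdkn1a: without that gene the score was -0.17 in BURP-12BaSq, 0.21 in BURP-19NE and lowest in BURP-21BaSq and BURP-24BaSq (both -0.28). The score of BURP-25BaSq was 0.11 without C102-M30 and -0.19 without C102-M3. In BURP-25BaSq the 3 tumors were spread from -0.43 in C102-M30, the library with most ribosomal RNA, to 0.22 in C102-M3.

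The Trp53 transcript did not follow its targets upward. Over the 8 line means Trp53 and the target score had r = -0.76 (rho = -0.62), and r was -0.78 over the Ba/Sq lines. Without BURP-18BaSq and BURP-21BaSq, the lines farthest from the median of Trp53, r was -0.42, so much of the relation rested on them. Between tumors of the same line r was 0.43. By gene, Trp53 had its lowest r over the 8 lines with Bax (-0.67), Bbc3 (-0.62) and Zmat3 (-0.55) and its highest with Eda2r (0.58).

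**Figure D5:**
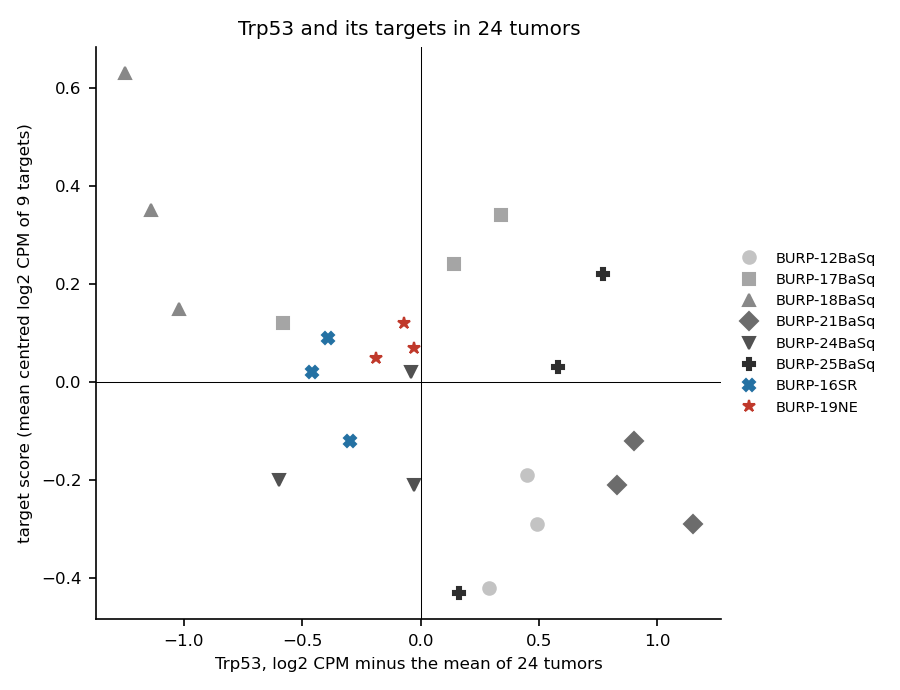
Target score (y axis, mean centred log2 CPM of the 9 targets) against Trp53 (x axis, centred log2 CPM) in the 24 tumors, with a symbol per line. BURP-18BaSq lies at the upper left (line means -1.14 for Trp53 and 0.38 for the score) and BURP-21BaSq at the lower right (0.96 and -0.20).

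The genes nearest to the target score over the 24 tumors were Sertad1 (r = 0.87), a cofactor of E2F, Ric8a (0.86), Ssbp4, Rbm42 and the nuclear receptor gene Nr2f6 (each 0.84). Those nearest to Cdkn1a were Rnf39 (0.90), the antisense gene Tmcc3os (0.88), Tmcc3 (0.86), Ppm1j (0.85) and the homeobox gene Irx3 (0.84). None of these 10 genes was on the lists of p53 targets used here, and the lists of nearest genes to the score and to Cdkn1a had no gene in common.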

How the data were processed

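RNA-seq libraries were made from total RNA after ribosomal RNA depletion, with 3 tumors of each of 8 BURP lines. The deposited values are expected counts per gene, which the authors made with STAR 2.6.0a and RSEM 1.3.1 (CASAVA 1.8.2 for base calls, per the submitters' processing notes) on GRCm38. RSEM divides a read that fits several genes, so 12.5% of values were not whole, and they were rounded. Of the Ensembl IDs, 99.8% were found in the GENCODE M21 annotation of the same build, which gave symbols and coordinates.

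Samples were grouped by the line number in their labels, and sex and subtype of a line follow the study's description. Counts were tested with edgeR 4.0.16 (R 4.3.3; TMM, filterByExpr, quasi-likelihood F test), with Benjamini-Hochberg adjustment over all genes tested. The tests were an F test over 8 lines, BURP-19NE and BURP-16SR each against 18 Ba/Sq tumors, BURP-16SR against BURP-24BaSq, each Ba/Sq line against the other 5, and male against female lines on counts summed per line. The SE is the log2 fold change divided by the root of F. Correlations used log2 CPM with a prior count of 2. p-values of the F test over lines and of BURP-16SR against BURP-24BaSq measure the spread between transplanted tumors. Labels name these tumors by cage and mouse or by passage. Where tumors of several Ba/Sq lines were pooled, the spread also includes that between Ba/Sq lines. In the comparison of the sexes it is the spread between lines.

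The members and gene lists were chosen with earlier results of these data known. The text names the 10 members, up to 4 called genes per list with the largest change (or F) in the comparisons and the 5 genes nearest to the target score and to Cdkn1a, and other genes from the lists were named after their values were seen. Alternatives were DESeq2 1.42.0, its size factors, other filters, a fold change above 2, 1 coefficient per line and leaving out tumors; tumors named by cage and mouse alone were an alternative chosen after seeing the data. On simulated data for BURP-19NE against Ba/Sq lines (20313 genes), 100% of 4-fold changes were found and 5.66% of calls were false. The simulated tumors were drawn independently, without lines and with the same spread for all genes, and only well-counted genes were changed. Those shares therefore do not carry over to real tumors, which are grouped in lines. Floors of 3 counts cover counting error only.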

Additional observations from a re-analysis of the deposited data

Results flagged for a closer look

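Outlying tumors were sought for each of the 10 genes among the 9 male and the 9 female Ba/Sq tumors with Dixon's criterion, and 2 of 20 groups held one. The criterion assumes independent values, and tumors of a line share a donor, so its chance rate does not hold here. Sesn2 in tumor P4 of BURP-18BaSq was at 15.1 CPM, below the other 8 male Ba/Sq tumors at 25.9 to 41.6 CPM (gap over range 0.531). Within BURP-25BaSq, Mdm2 in the tumor labelled C102-M1 was at 80 CPM, above the other 8 female Ba/Sq tumors at 44.8 to 57.9 CPM (0.557). That library also stood apart in its likeness to BURP-21BaSq, whose 3 tumors had 44.8 to 57.9 CPM of Mdm2.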

How the results depend on the processing

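No paired analysis was possible because the labels number tumors by cage and mouse or by passage and give no replicate number shared across lines. Of the values that answer a comparison, 40 moved past their limits. Of the remaining values, which are those of single genes and of correlations, 306 stayed the same. Among those of single genes, 11 gained a call, 4 lost one and 6 turned direction. Leaving out C102-M1 was counted here, and leaving out the other single tumors was not. The causes were not tested.

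With at least 10 counts in every tumor, which tests fewer genes, 9457 genes were called among the 8 lines, 3830 in BURP-19NE, 2889 in BURP-16SR, 2 in BURP-21BaSq and 12 in BURP-25BaSq, against 16409, 7023, 5276, 4 and 59. With 1 coefficient per line, members and genes called were 9 and 9092 in BURP-16SR, 2 and 4637 in BURP-12BaSq, 1 and 2760 in BURP-17BaSq, 2 and 1247 in BURP-21BaSq, 1 and 3627 in BURP-24BaSq and 1 and 1111 in BURP-25BaSq, and 6527 genes in BURP-18BaSq (main 3261). DESeq2 called 242 genes between the sexes (0 by edgeR), 3390 in BURP-12BaSq (1424), 996 in BURP-17BaSq (336), 484 in BURP-21BaSq, 1500 in BURP-24BaSq (534) and 195 in BURP-25BaSq, and Sesn2 in BURP-16SR (adjusted p = 0.0447). No filter gave 12 genes between the sexes and 21 in BURP-21BaSq. Requiring a fold above 2 left 941 genes in BURP-12BaSq, 220 in BURP-17BaSq, 1 member and 2065 genes in BURP-18BaSq and 339 in BURP-24BaSq. Without C102-M1, 155 genes were called in BURP-21BaSq and 364 in BURP-25BaSq. Counting each tumor as a replicate, 2 members and 979 genes differed between the sexes.

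With the tumors named by cage and mouse alone, 2 members and 2441 genes were called in BURP-16SR: Mdm2 and Phlda3 stayed, Bax (adjusted p = 0.0688) and Zmat3 (0.115) did not. In BURP-19NE Cdkn1a lost its call (0.09) and Sesn2 gained one (0.0394). Without Cdkn1a the target score was -0.17 in BURP-12BaSq, -0.28 in BURP-24BaSq and 0.21 in BURP-19NE. Ccng1 in BURP-16SR, at 0.00, turned to -0.01 (DESeq2 size factors, and without C102-M1), -0.00 (DESeq2), -0.09 (no filter), -0.04 (1 coefficient per line) and -0.21 (cage-named tumors), and ran from -0.20 to 0.07 without single tumors.

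Leaving out 1 tumor at a time gave 8 to 10 members and 15717 to 17335 genes among the 8 lines. In BURP-19NE it gave 3 to 4 and 4255 to 7391, and in BURP-16SR 2 to 4 and 3037 to 5762. In BURP-16SR against BURP-24BaSq it gave 7 and 4470 to 8610. For the Ba/Sq lines it gave 247 to 1712 genes in BURP-12BaSq, 58 to 408 in BURP-17BaSq, 1 to 4 members and 853 to 3494 genes in BURP-18BaSq, 0 to 155 in BURP-21BaSq, 91 to 698 in BURP-24BaSq and 9 to 364 in BURP-25BaSq. The median r over line means ran from -0.07 to 0.03, and the target score from -0.36 to -0.26 in BURP-12BaSq, 0.19 to 0.30 in BURP-17BaSq, 0.28 to 0.50 in BURP-18BaSq, -0.25 to -0.17 in BURP-21BaSq, -0.20 to -0.10 in BURP-24BaSq, -0.19 to 0.11 in BURP-25BaSq, -0.04 to 0.05 in BURP-16SR and 0.06 to 0.11 in BURP-19NE. Between the sexes a whole line was left out at a time instead, and 0 members and 0 genes were called. Depth limits Bbc3 and Eda2r most.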
